A study of Mus musculus with 154 samples.

Results

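The genes described here are the 10 genes of iron handling and of the iron hormone hepcidin chosen by their symbols: Hamp, Hamp2, Tfr2, Tfrc, Trf, Slc40a1, Cp, Fth1, Ftl1 and Hpx. All 10 were present in the liver count table of 13289 genes. Liver RNA (caudate lobe) was sequenced from male mice aged 5 weeks that had been fasted overnight. The mice belonged to 24 strains: the inbred strain C57BL/6J (B6, n = 20), 8 chromosome substitution strains (CSSs) that were heterozygous for a single chromosome of the strain A/J on an otherwise B6 background (63 mice), and 15 double CSSs that were heterozygous for 2 different A/J chromosomes (71 mice). Of the single CSSs, those with A/J chromosome 3, 6, 14 or 17, such as (B6.A3 x B6)F1, had the A/J chromosome from the dam. Those with chromosome 4, 5, 8 or 10, such as (B6 x B6.A4)F1, had it from the sire. Each had 8 mice, except (B6 x B6.A5)F1 with 7. The double CSSs, with 3 to 6 mice each, combined a dam strain with a sire strain. They were (B6.A3 x B6.A5)F1, (B6.A3 x B6.A8)F1, (B6.A3 x B6.A10)F1, and the 12 crosses of B6.A6, B6.A14 and B6.A17 dams with B6.A4, B6.A5, B6.A8 and B6.A10 sires. Strain names are written with the dam first. Because every substituted chromosome came from the same parent in all its crosses, the parent of origin and the chromosome cannot be told apart. A heterozygous substitution shows dominant and semi-dominant effects only, and its effect belongs to the whole chromosome. The labels name no iron treatment.

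Iron in plasma is carried by transferrin (Trf) and is taken up through transferrin receptor 1 (Tfrc), while most liver iron is stored in ferritin, a shell of heavy (Fth1) and light (Ftl1) chains. Cells release iron through ferroportin (Slc40a1), and the ferroxidase ceruloplasmin (Cp) oxidizes it for loading onto transferrin. Hepatocytes secrete hepcidin (Hamp), which binds ferroportin and causes its degradation, so that hepcidin limits the entry of iron into plasma. Transferrin receptor 2 (Tfr2) is the hepatocyte sensor of iron-loaded transferrin and acts upstream of hepcidin, and hemopexin (Hpx) clears free heme from plasma. Mice have a second hepcidin gene, Hamp2, next to Hamp. Ferritin, ferroportin and Tfrc are also controlled after transcription, by proteins that bind iron-responsive elements in their mRNAs.

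Positions are those of GENCODE vM21 on GRCm38 (mm10), all 10 genes being protein coding. Hamp (ENSMUSG00000050440, chr7:30942368-30944032, minus strand) and Hamp2 (ENSMUSG00000056978, chr7:30922372-30924681, minus strand) were neighbors on chromosome 7. The other genes were Tfr2 (ENSMUSG00000029716, chr5:137569840-137587481, plus), Tfrc (ENSMUSG00000022797, chr16:32608920-32632794, plus), Trf (ENSMUSG00000032554, chr9:103204001-103230444, minus), Slc40a1 (ENSMUSG00000025993, chr1:45908068-45926523, minus), Cp (ENSMUSG00000003617, chr3:19957054-20009145, plus), Fth1 (ENSMUSG00000024661, chr19:9980598-9985098, plus), Ftl1 (ENSMUSG00000050708, chr7:45457944-45459884, minus) and Hpx (ENSMUSG00000030895, chr7:105591613-105600137, minus). Only Tfr2 and Cp lay on a chromosome that was substituted in the study, so that for the other 8 genes every effect of a substitution came from a different chromosome (in trans).

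The hepcidin promoters are shown because both hepcidin genes were measured and their promoters can be compared base by base. The 250 bases upstream of each annotated start (RefSeq, GRCm38.p6) were searched on both strands for GGCGCC, the BMP-responsive element bound by SMAD proteins, and for TTCNNNGAA, the element bound by STAT factors. Capitals mark the matches. The RefSeq start of Hamp2 differs from the GENCODE start, so that its window lies inside the GENCODE span of Hamp2 given above. The Hamp sequence is chr7:30944030-30944279 and the Hamp2 sequence is chr7:30924182-30924431, both on the minus strand:
Hamp: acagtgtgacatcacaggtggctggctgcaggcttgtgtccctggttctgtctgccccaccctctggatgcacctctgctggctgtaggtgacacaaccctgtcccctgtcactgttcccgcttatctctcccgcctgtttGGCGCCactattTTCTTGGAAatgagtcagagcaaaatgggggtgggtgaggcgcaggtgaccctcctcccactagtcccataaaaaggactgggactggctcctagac
Hamp2: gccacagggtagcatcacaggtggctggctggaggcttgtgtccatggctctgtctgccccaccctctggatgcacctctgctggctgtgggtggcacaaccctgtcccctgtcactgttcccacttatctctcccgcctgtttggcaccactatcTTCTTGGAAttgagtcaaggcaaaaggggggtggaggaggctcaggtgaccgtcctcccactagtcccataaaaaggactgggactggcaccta
The promoters were identical at 227 of 247 aligned bases (91.9%). Hamp held GGCGCC at -109 and TTCNNNGAA at -97, whereas Hamp2 held TTCNNNGAA at -94 and no GGCGCC. The Hamp2 bases aligned to GGCGCC started at -106 and carried the substitution G4A, counted from 1 at the 5′ end of the motif. Of 32851 promoter windows of this length, 9.59% held GGCGCC and 7.02% held TTCNNNGAA.

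The iron-responsive elements are shown because 4 genes of this group carry them. In the mRNAs of ferritin and ferroportin they act on translation, which transcript counts do not measure, and in that of Tfrc they act on mRNA stability, which bears on the transcript level itself. A 17-base pattern was searched in whole protein-coding transcripts (GENCODE vM21, GRCm38), coding parts included. The pattern was C, 5 bases, the loop CAGTGN (in capitals, last base not G), and 5 bases that pair with the first 5. G-T pairs were allowed. It was found in 0.99% of 21899 genes, counting matches in any part of a transcript. The 5′ UTRs of Fth1 (chr19:9982738-9982754, plus), Ftl1 (chr7:45459785-45459801, minus) and Slc40a1 (chr1:45925471-45925487, minus) held 1 match each:
Fth1: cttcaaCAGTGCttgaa
Ftl1: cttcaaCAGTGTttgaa
Slc40a1: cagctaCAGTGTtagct
The 3′ UTR of Tfrc held 4 matches on the plus strand of chromosome 16, at chr16:32631225-32631241, chr16:32631604-32631620, chr16:32631669-32631685 and chr16:32631716-32631732, in this order:
Tfrc element 1: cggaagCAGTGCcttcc
Tfrc element 2: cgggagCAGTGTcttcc
Tfrc element 3: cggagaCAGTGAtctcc
Tfrc element 4: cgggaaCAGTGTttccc

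Total counts per mouse ranged from 6752637 to 25630807 in B6, from 6059667 to 29437186 in the single CSSs and from 4638701 to 30465477 in the double CSSs, with a median of 16116424 over all mice. The lowest count of any member in any mouse was 68 (Hamp2), so that all 10 members were counted well above the low counts at which zeros arise. A mouse of (B6.A14 x B6.A4)F1, E733, stood apart. Its summed level of 4 Y-linked genes was 2.94 CPM (counts scaled to a common library size), against 227.5 to 432.0 CPM in the other mice, although all mice are labeled male. The called effects of members in its strain, and the correlations of strain means, are given with and without it. Which libraries shared a flow cell is not stated in the sources used here, so sequencing batches were not examined. The 6 hepatocyte markers (Alb, Ttr, Apoa1, Cps1, Pck1, Serpina1a) summed to between 90839 and 145360 CPM in B6, and no defining hepatocyte marker was at 0.

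In B6 liver, the level per kilobase of transcript was highest for Hpx (2726 CPM per kb), followed by Hamp (526.9), Ftl1 (471.6), Trf (302), Cp (172), Fth1 (115.7), Tfr2 (62.0), Hamp2 (57.6), Slc40a1 (24.2) and Tfrc (11.3). On this per-length scale, Hamp was thus the second highest of the 10 genes and Tfrc the lowest. The genes also differed in how much they varied between genetically identical mice. The coefficient of variation of CPM among the 20 B6 mice was 44.5% for Hamp and 43.7% for Hamp2, between 20.2% and 21.9% for Hpx, Slc40a1 and Tfrc, and between 10.2% and 11.6% for Cp, Ftl1, Trf, Tfr2 and Fth1. A change of given size was therefore harder to detect for the hepcidins. The median standard error of a main effect on the log2 scale was 0.242 for Hamp and 0.263 for Hamp2, against 0.0545 for Ftl1 and 0.0656 for Tfr2.

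**Figure D1:**
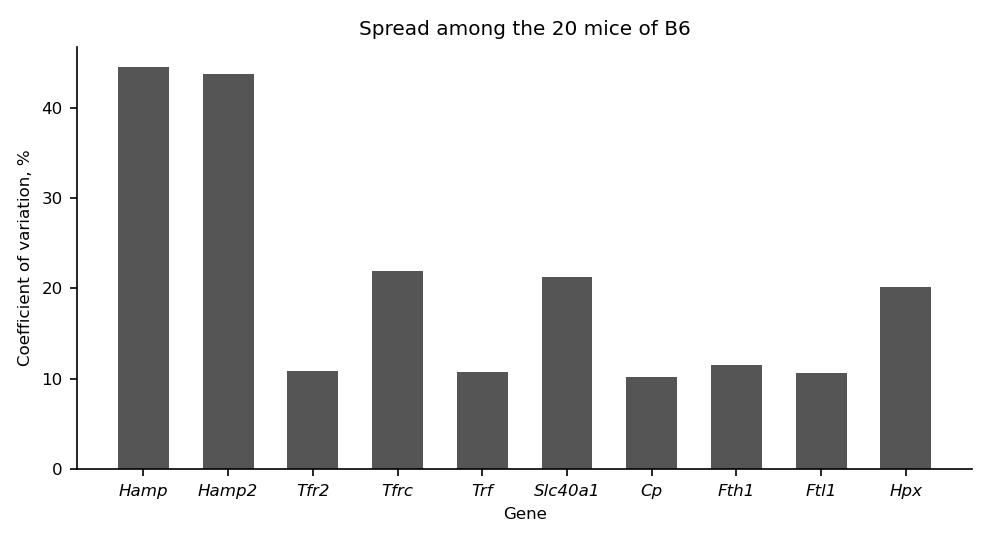
Bars give the coefficient of variation (%) of CPM among the 20 B6 mice for each of the 10 genes. Hamp and Hamp2 lie near 44%, and the remaining 8 genes lie between 10.2% and 21.9%.

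The question of the design was whether a substituted chromosome changed expression relative to B6 (main effect), and whether the double CSS departed from the sum of its 2 main effects on the log2 scale (interaction). The fit also held 5 surrogate variables, estimated from the counts to take up variation between libraries that the strains do not account for. Of the 80 main effects on the 10 genes, 13 passed a false discovery rate (FDR) of 0.05, and 24 had an unadjusted p below 0.05. Over all genes, 11.1% of main effects passed. Of these 13, 12 were lower than B6 (5.76% of tests over all genes were called lower) and 1 was higher (5.34% over all genes). Of the 150 interactions, 19 passed, of which 18 were positive and 1 negative. Over all genes, 5.98% of interactions passed, with 3.36% positive and 2.62% negative. All of these effects share the same 20 B6 mice. A joint test of all strain differences passed for 8 of the 10 genes, against 51.4% of all genes. The exceptions were Hamp (FDR 0.0933) and Ftl1 (FDR 0.224). A joint test of the 15 interactions passed for 5 (Tfr2, Tfrc, Hpx, Cp and Trf), against 27.5% of all genes. In whole liver, fewer cells of a type and less RNA per cell cannot be told apart.

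**Figure D2:**
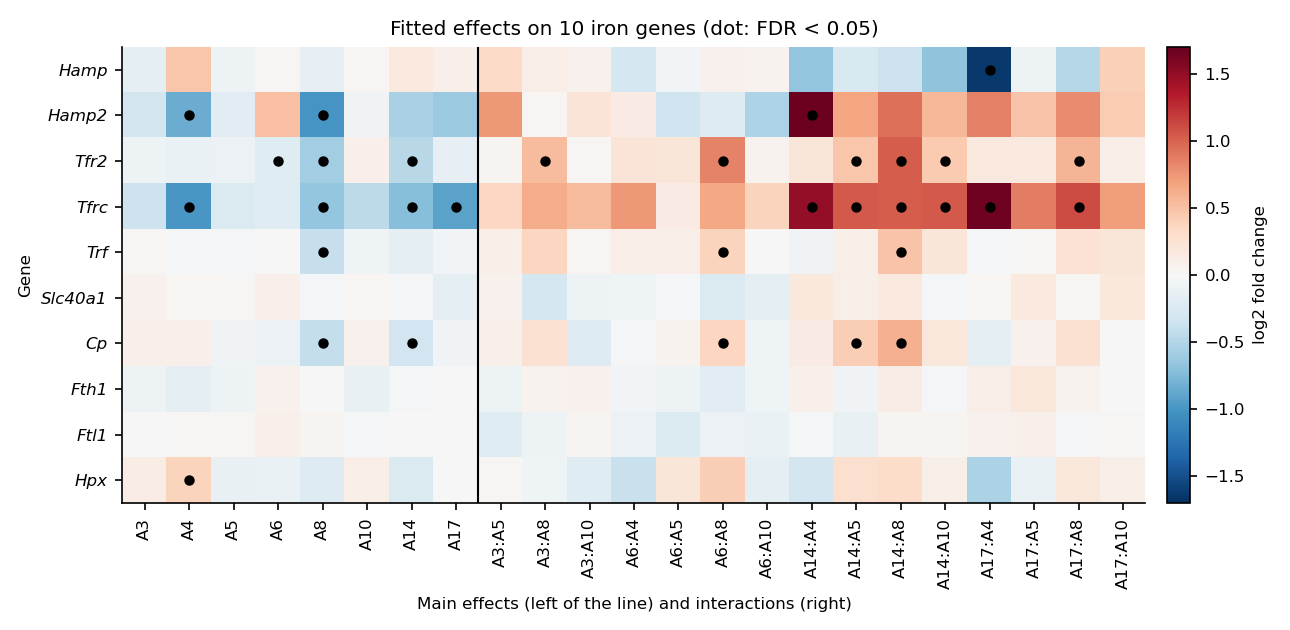
Color gives the log2 fold change of each of the 10 genes (rows) for the 8 main effects and the 15 interactions (columns), with a black dot where the FDR was below 0.05. Main effects of Tfr2 and Tfrc are mostly negative and their interactions positive, and Fth1, Ftl1 and Slc40a1 carry no dot.

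Hamp, the main hepcidin gene, had no main effect that passed the test, and its joint test of strains did not pass either. In B6, Hamp ranged from 47.0 to 416 CPM, with a median of 223.8 and a mean of 216 ± 96.1 CPM (SD, n = 20). Its strain means on the log2 CPM scale covered 1.83 units, from 6.47 in (B6.A17 x B6.A4)F1 to 8.30 in (B6.A17 x B6.A10)F1, against a pooled SD of 0.62 among mice of a strain. Sorted by level, only the lowest strain was separated from its neighbor by more than that SD. The next 23 strains followed each other in smaller steps.

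The main effects on Hamp lay between -0.16 and 0.47 on the log2 scale, with a smallest FDR of 0.178 (A4). At an unadjusted p of 0.05, 1 of the 8 passed, and DESeq2 called none. For the A8 substitution, which lowered several other members, the log2 fold change of Hamp was -0.14, with a 95% interval of -0.66 to 0.37. The spread between mice left a change of either sign within that interval.

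The called effect on Hamp was an interaction. The 4 (B6.A17 x B6.A4)F1 mice had 73.5, 122.5, 41.4 and 165.05 CPM (mean 100.6 ± 54.4, SD). These values overlapped with the lower B6 mice, and all 4 lay below the B6 median. The single CSSs lay higher, with 257 ± 104 CPM in (B6 x B6.A4)F1 and 201 ± 70.9 CPM in (B6.A17 x B6)F1 (SD, n = 8 each). The sum of the 2 main effects was 0.55 on the log2 scale and the fitted difference of the double CSS from B6 was -1.09 (SE 0.328, FDR 0.0453), giving an interaction of -1.64 (SE 0.430, FDR 0.0390). Over all genes, 1.23% of the A17:A4 interactions were called. The interaction lost its call without surrogate variables (log2 fold change -1.25, FDR 0.0886), with 10 of them (-1.28, FDR 0.294), with surrogate variables estimated from the deposited counts (-1.40, FDR 0.0641) and without mouse E733, which belongs to another strain (-1.59, FDR 0.0547). With a replicate of each CSS left out in turn it ranged from -2.04 to -1.32, with an FDR of up to 0.141. The difference from B6 lost its call without surrogate variables (FDR 0.119), with those from the deposited counts (FDR 0.0542) and in 3 of 4 fits that left out a replicate, which ranged from -1.47 to -0.79. In (B6.A17 x B6.A10)F1, the 4 mice had 307, 289, 339 and 323.6 CPM, within the B6 range, and the difference from B6 was 0.52 on the log2 scale (SE 0.291, FDR 0.551).

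Hamp2, whose product is closely related to hepcidin, was lowered by the A8 substitution. The (B6 x B6.A8)F1 mice had a lowest, median and highest level of 7.02, 12.3 and 25.8 CPM, against 12.4, 30.9 and 62.1 CPM in B6. Of these 8 mice, 4 lay below all B6 mice and 4 within the lower part of the B6 range. The log2 fold change was -1.0 (SE 0.294, FDR 0.00531), which is 0.499 of the B6 level. Hamp2 was also lower in (B6 x B6.A4)F1, with 6.61, 16.2 and 28.6 CPM and a log2 fold change of -0.84 (SE 0.269, FDR 0.0247). With a replicate of each single CSS left out in turn, this estimate ranged from -1.08 to -0.71, with an FDR of up to 0.0936, and it lost its call with 10 surrogate variables (FDR 0.0906). The highest strain was (B6.A6 x B6)F1, with 42.1 ± 17.7 CPM (SD, n = 8) and a log2 fold change of 0.51 that did not pass (FDR 0.178). Of the 50-base windows of Hamp2, 19.5% occur also in Hamp or in Gm44662. The latter overlaps both hepcidin genes on the opposite strand and is not in the table. How such reads were assigned could affect the level of Hamp2, which was lower than that of Hamp.

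Of the 6 strains with the lowest mean of Hamp2, 5 carried the A8 chromosome. In the 4 double CSSs with A8, the log2 difference of Hamp2 from B6 was -1.28 with A3, -0.72 with A6, -0.62 with A14 and -0.84 with A17, although none passed the test (FDR 0.094, 0.217, 0.255 and 0.105). Over all 15 double CSSs, 4 differences of Hamp2 had an unadjusted p below 0.05, and DESeq2 called 1. The 4 interactions of A8 on Hamp2 were 0.03, -0.23, 0.93 and 0.80 on the log2 scale and none passed. The called interaction was A14:A4 (log2 fold change 1.67, SE 0.455, FDR 0.0197), in a strain whose 5 mice had 33.4, 18.7, 115.3, 17.1 and 33.5 CPM. The value of 115.3 CPM belonged to mouse E733, and without it the interaction was 1.16 (FDR 0.146). With 10 surrogate variables it was 1.54 (FDR 0.0619).

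**Figure D3:**
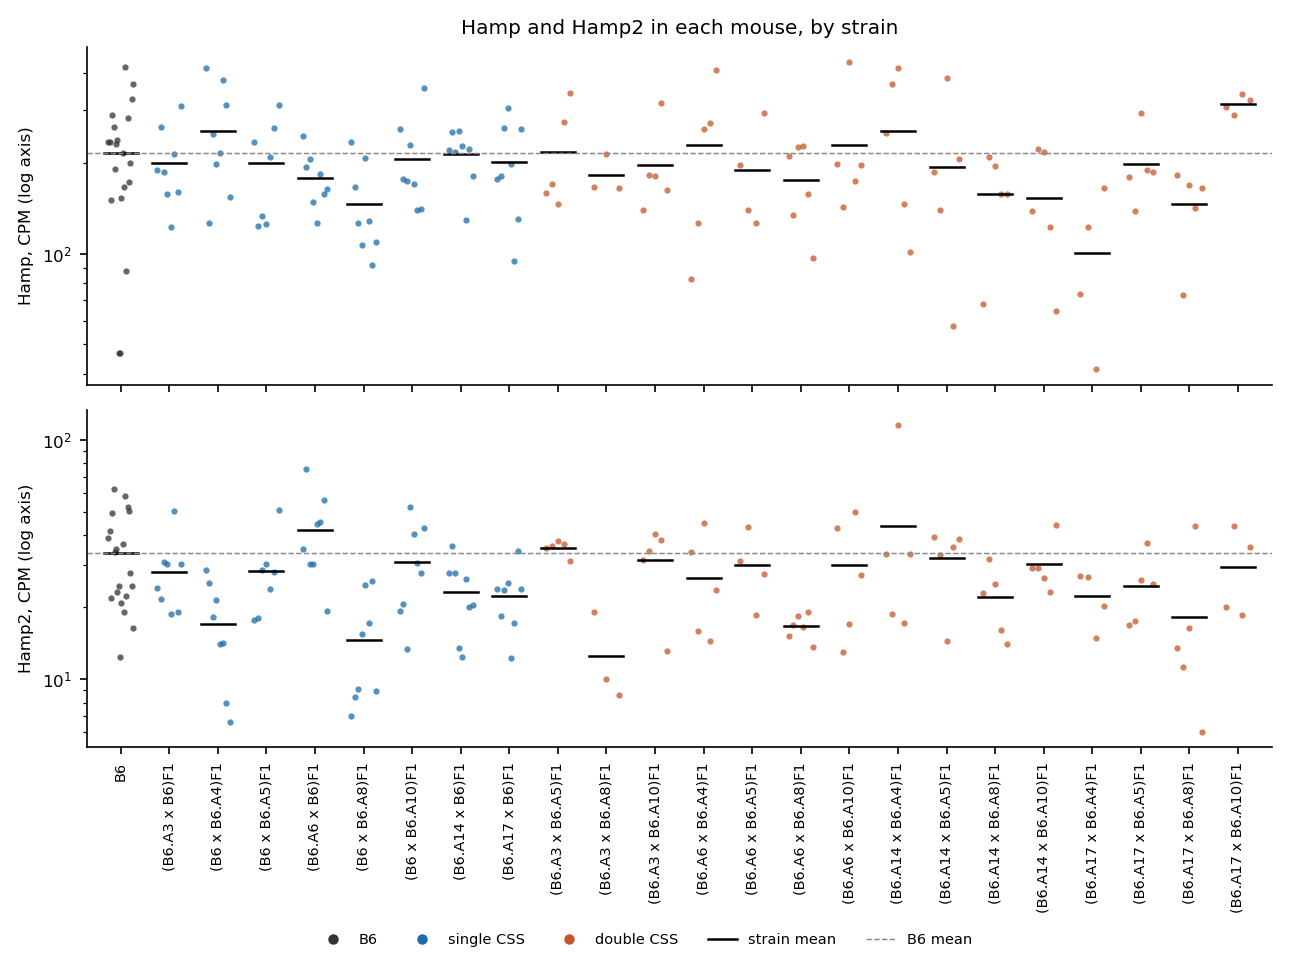
Points give Hamp (upper panel) and Hamp2 (lower panel) in CPM on a log axis for each mouse by strain, black bars the strain means and the dashed line the B6 mean; B6 is grey, single CSSs blue and double CSSs orange. The lowest strain mean of Hamp is in (B6.A17 x B6.A4)F1, and the single and double CSSs with A8 lie low for Hamp2.

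Tfr2, the sensor of iron-loaded transferrin, carried the clearest effects. It was lowered by A8, by A14 and, to a lesser degree, by A6. In (B6 x B6.A8)F1 the lowest, median and highest levels of Tfr2 were 134, 164 and 216 CPM, against 217.2, 266 and 335 CPM in B6, so that all 8 mice lay below all 20 B6 mice. The mean was 163.4 ± 27.4 CPM against 269 ± 29.1 CPM (SD), with a log2 fold change of -0.59 (SE 0.0713, FDR 1.46e-10). In (B6.A14 x B6)F1 the levels were 141.2, 186.6 and 219 CPM, and only the highest overlapped with B6 (log2 fold change -0.47, SE 0.0664, FDR 7.17e-08). The decrease with A6 was smaller, to 228 ± 32.5 CPM (log2 fold change -0.20, SE 0.0641, FDR 0.0313), and it lost its call with 10 surrogate variables (log2 fold change -0.10). The A5 substitution, which carries the Tfr2 gene itself, gave a log2 fold change of -0.10 that did not pass (SE 0.0659, FDR 0.388). Over all genes, 18.5% of main effects of a gene's own chromosome were called.

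When A8 and A14 were combined, Tfr2 was at the B6 level. The 5 mice of (B6.A14 x B6.A8)F1 had 261, 261, 248, 255 and 266 CPM (258 ± 6.98, SD), all within the B6 range and all above every mouse of both single CSSs. The sum of the 2 main effects was -1.06 on the log2 scale, whereas the fitted difference from B6 was -0.04, which gave an interaction of 1.03 (SE 0.112, FDR 1.29e-12). Interactions of this pair were common, with 32.5% of all genes called. The 6 mice of (B6.A6 x B6.A8)F1 had a lowest, median and highest level of 271.4, 279.6 and 298 CPM, and the interaction was 0.85 (SE 0.106, FDR 3.80e-09), against a background of 24.9% of genes called. The 95% interval of the difference of (B6.A14 x B6.A8)F1 from B6 was -0.19 to 0.11.

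Further positive interactions on Tfr2 were A17:A8 (log2 fold change 0.57, SE 0.112, FDR 7.72e-04), A3:A8 (0.54, SE 0.121, FDR 0.00275), A14:A5 (0.47, SE 0.111, FDR 0.00832) and A14:A10 (0.44, SE 0.115, FDR 0.0151). Thus all 4 double CSSs with A8 had a called interaction, and all 4 returned to a level that did not differ from B6 by the test, with differences between -0.16 and 0.05 on the log2 scale. Of the further interactions, A17:A8, A3:A8 and A14:A10 lost their calls with 10 surrogate variables (log2 fold changes 0.30, 0.32 and 0.22). The study itself reported no A17:A8 interaction for genes that, like Tfr2 and Tfrc, lie on neither chromosome. All 15 interaction estimates of Tfr2 were positive, and 7 of its 8 main effects were negative. These estimates share the B6 mice and the mice of the single CSSs, so that they are not independent. The double CSS that stayed low was (B6.A14 x B6.A4)F1, whose 5 mice had 209, 242.4, 180.9, 236 and 205 CPM. The lowest of these was E733. The difference from B6 was -0.38 on the log2 scale (SE 0.0770, FDR 1.89e-04), and -0.29 without E733 (FDR 0.0116).

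Tfrc, the receptor that takes up transferrin-bound iron, was lowered by more substitutions than any other member: 4 of 8 were called, namely A4, A17, A14 and A8. In (B6 x B6.A4)F1 the lowest, median and highest levels were 26.6, 38.8 and 53.5 CPM, against 45.01, 69.3 and 99.6 CPM in B6, so that the groups overlapped only in the lower part of the B6 range. The mean was 40.0 ± 9.72 CPM against 70.2 ± 15.4 CPM (SD), with a log2 fold change of -0.99 (SE 0.168, FDR 1.71e-05). In (B6.A17 x B6)F1 the levels were 31.4, 38.9 and 80.2 CPM (log2 fold change -0.90, SE 0.165, FDR 6.90e-04). The decreases with A14 (46.4 ± 9.59 CPM, log2 fold change -0.73, SE 0.165, FDR 4.40e-04) and A8 (51.9 ± 11.4 CPM, log2 fold change -0.66, SE 0.179, FDR 0.00246) were smaller. Both lost their calls with 10 surrogate variables (log2 fold changes -0.53 and -0.46). The estimates for A3, A5, A6 and A10 were also negative, between -0.45 and -0.20, but did not pass.

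**Figure D4:**
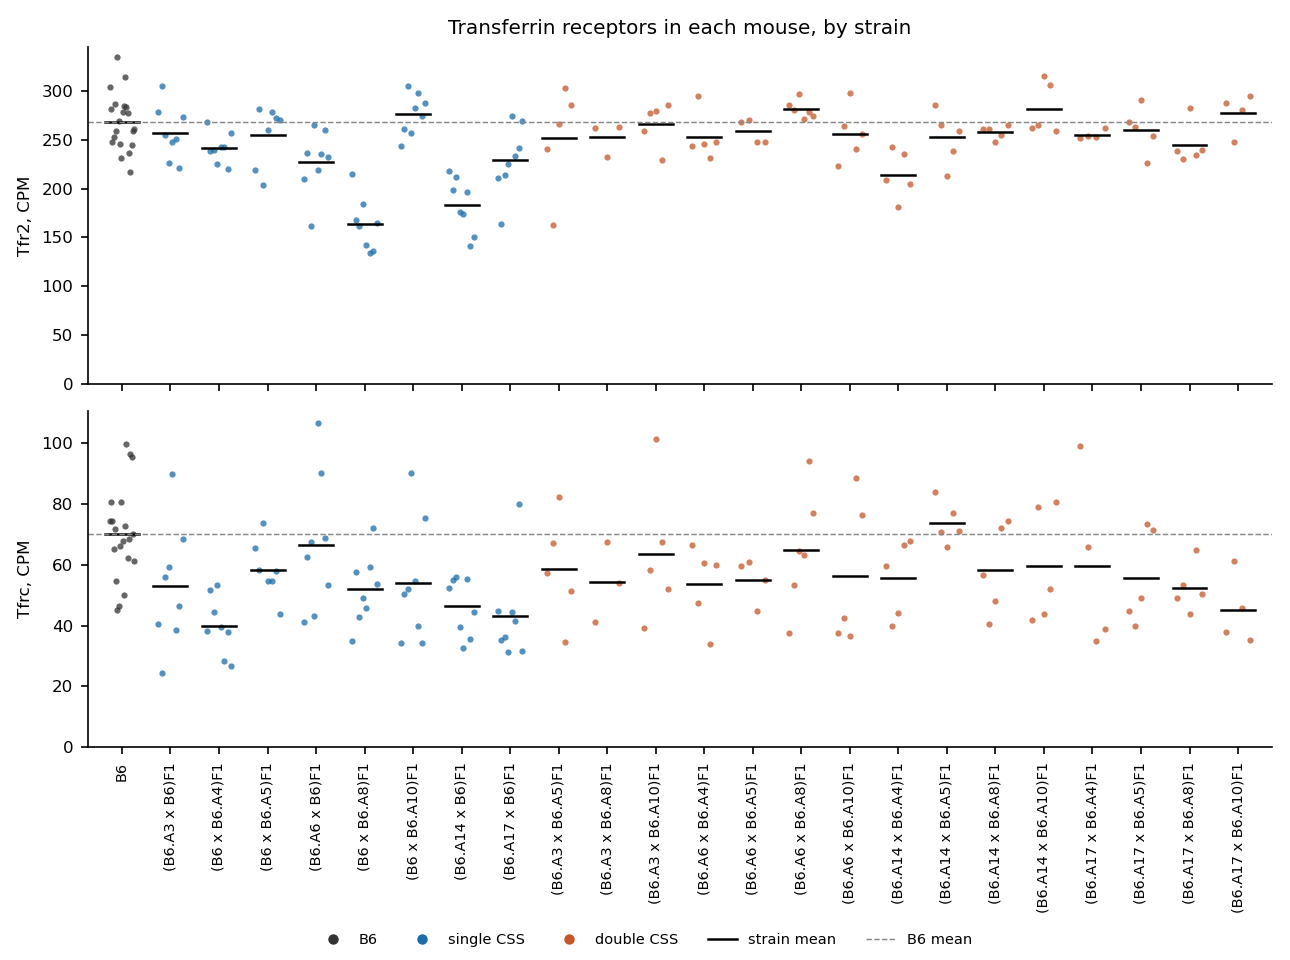
Points give Tfr2 (upper panel) and Tfrc (lower panel) in CPM on a linear axis from 0 for each mouse by strain, black bars the strain means and the dashed line the B6 mean; B6 is grey, single CSSs blue and double CSSs orange. Tfr2 is lowest in the single CSSs with A8 and A14 and near B6 in the double CSSs with A8. Tfrc lies below the B6 mean in all 8 single CSSs and in all double CSSs except (B6.A14 x B6.A5)F1.

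No double CSS differed from B6 in Tfrc by the test (smallest FDR 0.148, with 3 of 15 at an unadjusted p below 0.05 and 0 called by DESeq2). Of the 24 strains, 22 nevertheless had a lower mean log2 CPM of Tfrc than B6, including all 8 single CSSs. Among the double CSSs, only (B6.A14 x B6.A5)F1 had a higher mean than B6. B6 is the reference of all main effects and interactions, and the part of its level in their signs was not tested. For A17:A4 the sum of the main effects was -1.90 on the log2 scale and the fitted difference of the double CSS was -0.25, with an interaction of 1.65 (SE 0.277, FDR 2.78e-04). The 4 mice of that strain were spread widely, at 99.0, 65.7, 34.9 and 39.0 CPM, of which 3 lay within the range of (B6.A17 x B6)F1 and below the B6 mean and 1 lay near the highest B6 mouse. For A14:A4 the sum was -1.72 and the fitted difference -0.23, with an interaction of 1.49 (SE 0.278, FDR 3.00e-04). Its 5 mice had 59.6, 39.9, 44.2, 66.4 and 67.9 CPM, and the interaction was 1.48 without E733 (FDR 9.68e-04). The other called interactions were A17:A8 (log2 fold change 1.11, FDR 0.00599), A14:A10 (1.05, FDR 0.0206), A14:A5 (1.05, FDR 0.0167) and A14:A8 (1.03, FDR 0.00176). None of these last 4 kept its call with 10 surrogate variables, where their log2 fold changes were 1.0, 0.83, 0.82 and 0.74. Without surrogate variables, A17:A8 (0.71, FDR 0.0557) and A14:A10 (0.74, FDR 0.0714) were not called, and A14:A10 was not called under a stricter filter on counts either (0.84, FDR 0.0600). The A14:A5 mice had 83.9, 70.7, 65.8, 77.0 and 71.1 CPM and formed the strain with the highest mean. All 15 interaction estimates of Tfrc were positive, with the same shared mice as above.

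Transferrin (Trf) and ceruloplasmin (Cp), both secreted by hepatocytes, changed with A8 in the same direction as Tfr2. Trf in (B6 x B6.A8)F1 ranged from 651 to 835 CPM with a mean of 735 ± 72.2 (SD, n = 8), below all B6 mice (867 to 1311 CPM, mean 1004 ± 108, n = 20). The log2 fold change was -0.39 (SE 0.0774, FDR 3.41e-05). With A14, Trf had a log2 fold change of -0.17 that did not pass (FDR 0.0744). Cp had 746, 1130 and 1693 CPM (lowest, median, highest) in (B6 x B6.A8)F1 and 926, 1233 and 1561 CPM in (B6.A14 x B6)F1, against 1432, 1609 and 2133 CPM in B6, with overlap in both. The log2 fold changes of Cp were -0.40 (SE 0.0816, FDR 5.49e-05) for A8 and -0.33 (SE 0.0764, FDR 5.54e-04) for A14. The A3 substitution, which carries the Cp gene, gave a log2 fold change of 0.09 (SE 0.0718, FDR 0.507).

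Trf and Cp were nearer to B6 in (B6.A14 x B6.A8)F1 than in (B6 x B6.A8)F1. In (B6.A14 x B6.A8)F1 the 5 mice had 857, 890, 862, 956 and 974 CPM of Trf, and 1348, 1561, 1455, 1524 and 1516 CPM of Cp. The lowest B6 mouse had 867 CPM of Trf, and the lowest for Cp had 1432 CPM. A return to B6 was less clear in (B6.A17 x B6.A8)F1, with 757 to 957 CPM of Trf and 1235 to 1635 CPM of Cp. For both genes, neither its difference from B6 nor its interaction was called. The A14:A8 interaction was 0.48 on the log2 scale for Trf (SE 0.123, FDR 9.61e-04) and 0.61 for Cp (SE 0.129, FDR 6.53e-05). The A6:A8 interaction was 0.37 for Trf (SE 0.115, FDR 0.0105) and 0.37 for Cp (SE 0.122, FDR 0.0168). For Cp this call was lost with 10 surrogate variables (0.37, FDR 0.0987) and under the stricter filter on counts (0.31, FDR 0.0552). The remaining called interaction of Cp was A14:A5 (log2 fold change 0.42, SE 0.128, FDR 0.0431), which was lost with 10 surrogate variables, with size factors of DESeq2, under the stricter filter and without E733 (log2 fold change 0.39, FDR 0.0695). Trf was below B6 in the double CSS (B6.A14 x B6.A4)F1, with 847.5, 806, 676, 911 and 887 CPM (log2 difference -0.26, FDR 0.0234). The value of 676 CPM was that of E733, and without it the difference was -0.20 (FDR 0.155). The call was lost in 3 of 5 fits that left out a replicate. Of the 50-base windows of Trf, 59.4% occur also in other annotated genes, mainly in the overlapping gene model Gm20425 on the same strand, which is not in the table. How such reads were assigned could affect the level of Trf in all mice.

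**Figure D5:**
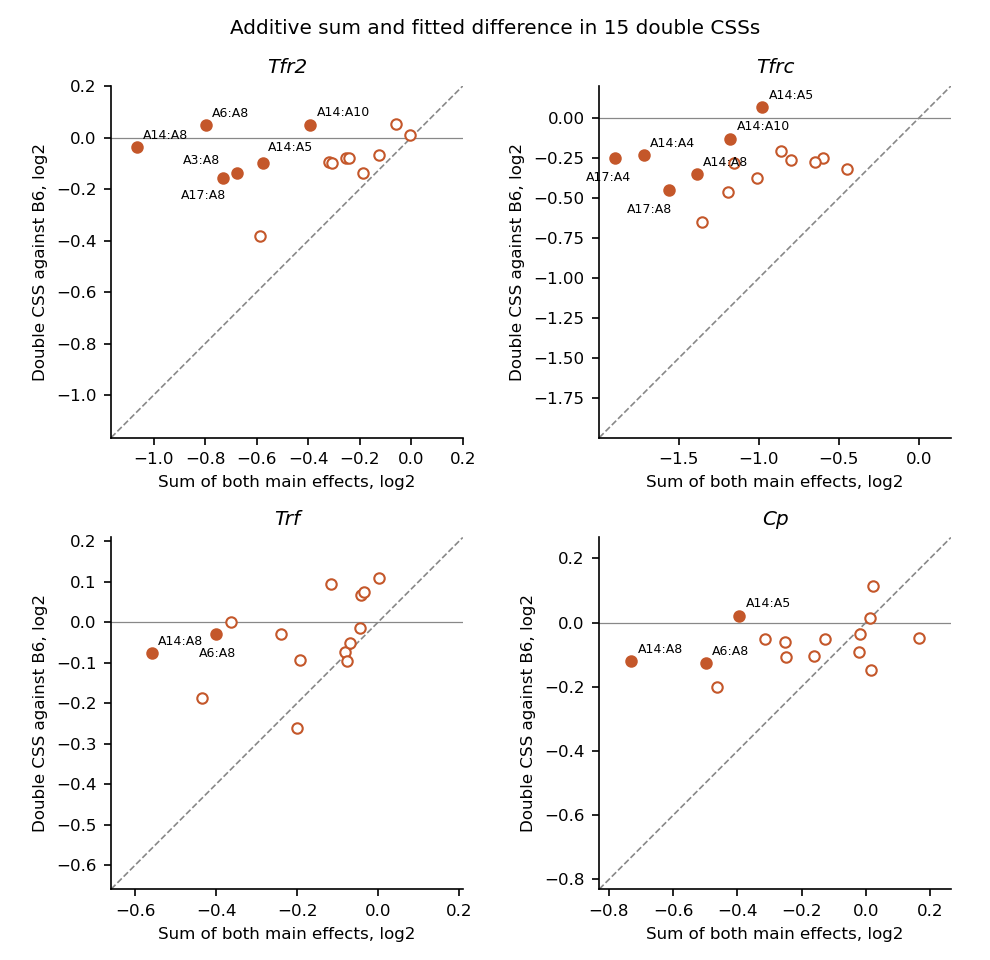
Each point is a double CSS; the x axis gives the sum of its 2 main effects and the y axis its fitted difference from B6, both as log2 fold changes, for Tfr2, Tfrc, Trf and Cp. Points on the dashed line would be additive, and filled points have a called interaction; the filled points lie above the line, at up to -1.90 on the x axis for Tfrc against -0.25 on the y axis.

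Ferroportin (Slc40a1) and the ferritin chains (Fth1, Ftl1), the genes with an iron-responsive element in the 5′ UTR, had no called main effect and no called interaction. DESeq2 called none either. At an unadjusted p below 0.05 there was 1 main effect for Slc40a1, 1 for Fth1 and 0 for Ftl1, and there were 2, 0 and 2 interactions. Slc40a1 ranged from 136.03 to 314 CPM in B6 (mean 218 ± 46.4, SD). Its main effects lay between -0.15 and 0.08 on the log2 scale (smallest FDR 0.188). The joint test of strains passed nonetheless (FDR 0.0037), and its 3 lowest strain means were those of (B6.A17 x B6.A8)F1, (B6.A3 x B6.A8)F1 and (B6.A6 x B6.A8)F1, at 184 ± 15.5 (n = 5), 184 ± 14.1 (n = 3) and 197 ± 12.9 CPM (n = 6). None of these differed from B6 by the single test (log2 differences -0.15, -0.24 and -0.18, FDR 0.255, 0.196 and 0.200). The single CSS (B6 x B6.A8)F1 had 230 ± 19.3 CPM.

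Fth1 had 401.3 ± 46.4 CPM and Ftl1 had 632 ± 67.03 CPM in B6 (SD, n = 20). The main effects lay between -0.15 and 0.08 for Fth1 (smallest FDR 0.113) and between -0.03 and 0.09 for Ftl1 (smallest FDR 0.279) on the log2 scale. Strain means of Ftl1 covered only 0.31 log2 units, the narrowest range of the 10 genes. Both chains were lower than B6 in (B6.A3 x B6.A5)F1. Its 5 mice had 365, 276, 372.7, 372 and 389 CPM of Fth1 and 609, 583.6, 648, 483 and 602 CPM of Ftl1, overlapping with B6. The log2 differences were -0.26 for Fth1 (SE 0.0773, FDR 0.0158) and -0.18 for Ftl1 (SE 0.0640, FDR 0.0496), in a contrast where 13.5% of all genes were called. Neither call held without surrogate variables, with 10 of them or with those from the deposited counts. The Ftl1 call was also lost with size factors of DESeq2 and without E733, a mouse of (B6.A14 x B6.A4)F1. Without replicate 2 of each double CSS, which here is the mouse with 276 CPM of Fth1, the Fth1 difference was -0.19 (FDR 0.109). Of the 50-base windows of Ftl1, 58.4% occur in other annotated genes, mostly processed copies such as Ftl1-ps1, so that its count depends on how reads with several positions were treated.

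Hemopexin (Hpx) was the only member raised by a substitution. It was the highest of the 10 genes, with 4086 ± 824 CPM in B6 (SD, n = 20; 2898 to 6026). In (B6 x B6.A4)F1 the lowest, median and highest levels were 3251, 4728 and 8659 CPM, overlapping with B6 over most of the range. The log2 fold change was 0.38 (SE 0.101, FDR 0.00666), and it was 0.18 with 10 surrogate variables (FDR 0.407). Leaving out replicate 8 of each single CSS, which for A4 is the mouse with 8659 CPM, gave 0.24 and no call, and the call was also lost without replicate 1. The estimates with A8 and A14 were negative (log2 fold changes -0.22 and -0.25) and did not pass. No single interaction of Hpx passed (smallest FDR 0.0602, A6:A8), although the joint test of the 15 interactions did (FDR 0.00862).

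By chromosome, A8 had called effects on 5 of the 10 genes (Hamp2, Tfr2, Tfrc, Trf and Cp, all lower, where 29.7% of all genes were called and 16.8% called lower), A14 on 3 (Tfr2, Tfrc and Cp, all lower, where 22.6% of all genes were called and 12.6% called lower), and A4 on 3 (Hamp2 and Tfrc lower, Hpx higher, where 13.5% of all genes were called). A6 and A17 had 1 each, with 8.10% and 3.70% of all genes called. A3, A5 and A10 had none, with 3.69%, 0.768% and 6.67% of all genes called. The median log2 fold change of the 10 genes was -0.30 for A8 and -0.21 for A14, against -0.01 and -0.01 over all genes. By pair of chromosomes, the called interactions were 4 of 10 for A14:A8 (32.5% of all genes), 3 for A6:A8 (24.9%), 3 for A14:A5 (4.03%), 2 for A17:A8 (8.77%), 2 for A14:A4 (4.70%, which is 624 genes, against 260 genes without E733), 2 for A14:A10 (4.17%), 2 for A17:A4 (1.23%) and 1 for A3:A8 (7.58%). Of the 19, 18 were antagonistic, in that the double CSS lay nearer to B6 than the sum of the main effects. This was also the rule over all genes, with 94.6% of called interactions. The exception was Hamp A17:A4. The share of the strain variation in fitted log2 levels that was left when only main effects were fitted had a median of 0.616 over the 10 genes, from 0.340 for Fth1 to 0.822 for Tfrc. The median includes Hamp (0.775) and Ftl1 (0.744), whose joint test of strains did not pass. The study states that this share may be slightly too high through overfitting, and used it only for genes under genetic control. No value over all genes was computed here.

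Of the 150 differences between a double CSS and B6, 5 passed, all lower: Tfr2 and Trf in (B6.A14 x B6.A4)F1, Hamp in (B6.A17 x B6.A4)F1, and Fth1 and Ftl1 in (B6.A3 x B6.A5)F1. Over all genes, 3.98% passed (1.83% lower), with 13.9% in (B6.A14 x B6.A4)F1 (9.44% without E733), 4.15% in (B6.A17 x B6.A4)F1 and 13.5% in (B6.A3 x B6.A5)F1. Of these 5, only the Tfr2 difference held under all alternatives examined.

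Genes that act upstream of hepcidin were examined in lists. In the list of BMP-SMAD and iron-sensing control (20 of 21 genes in the table), 8 main effects were higher and 6 lower of 160 (8.75% called, against 11.1% of all genes), and the median log2 fold change was -0.00 for the list and -0.00 for all genes. Bmp6, the ligand that induces hepcidin with iron loading, had no called main effect and a negative A14:A5 interaction (log2 fold change -0.72, FDR 0.0441). Id1, a BMP target gene, had a positive A3:A8 interaction (1.21, FDR 0.0373), and Smad7, an inhibitor induced by the same pathway, had no called effect. Tmprss6, the protease that lowers hepcidin, was lower with A8 (log2 fold change -0.17, FDR 0.0079) and had a positive A14:A8 interaction (0.34, FDR 5.63e-04). Hfe, which acts with Tfr2, was higher with A6 (0.15, FDR 0.0167). The list genes with most calls were Bmpr2, a BMP receptor (A4 0.23, A14 0.15), Furin, the protease that processes prohepcidin (A4 -0.25, A6 -0.29, A8 -0.38, A10 -0.24), and Bmp2, a ligand from liver endothelium (A8 0.31, A14 0.44), all as log2 fold changes of called main effects.

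The inflammatory arm of hepcidin control runs from interleukin-6 receptors to STAT3. All 7 listed genes were measured, with 4 main effects higher and 13 lower of 56 (30.4% called, median log2 fold change -0.11, against 11.1% and -0.00 for all genes). Of 105 interactions, 15 were positive and 3 negative (17.1% called, against 5.98% of all genes). Stat3 was lower with A8 (log2 fold change -0.57, FDR 2.35e-07), A14 (-0.43, FDR 5.05e-05) and A6 (-0.27, FDR 0.0263), and it had 6 positive interactions. Il6ra, the interleukin-6 receptor, was lower with 5 substitutions, and the kinase Jak2 was higher with 4 (A4, A6, A8 and A14; log2 fold changes 0.15 to 0.28). In the acute phase list of 15 genes, 11 fell and 1 rose with A8 (16.8% of all genes were called lower), 8 fell with A14 (12.6% of all genes lower), 5 fell with A6 (8.10% of all genes called) and 6 rose with A4 (13.5% of all genes called). Over all main effects of the list 27.5% were called, against 11.1% of all genes, with a median log2 fold change of -0.24. Some of these genes varied widely in the shared B6 reference. The SD was above the mean for Saa1 (118.6 ± 233.1 CPM), Saa2 (46.6 ± 92.4), Lcn2 (32.2 ± 53.6) and Orm2. Saa1, Saa2 and Orm2 were among the genes called with A4, and Saa1 and Lcn2 among those called with A6 and A8. The part of this spread in the calls was not tested. Hp, the haptoglobin that binds free hemoglobin, moved as Hpx did in the sign of its estimates: 0.29 with A4 (FDR 0.0464), -0.56 with A8 (FDR 5.66e-05) and -0.29 with A14 (FDR 0.0423) on the log2 scale. The gene Hp lies on chromosome 8. Fga, Itih3 and Serpina3n each fell with A6, A8 and A14 (log2 fold changes between -0.39 and -0.85).

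Of the 19 listed genes of iron transport and regulation, 17 were measured, with 8 main effects higher and 14 lower (16.2% of tests called, against 11.1% of all genes, median log2 fold change -0.03) and 18 positive and 9 negative interactions of 255 (10.6% called, against 5.98%). Slc39a14 (ZIP14), which imports iron not bound to transferrin, was lower with A4, A8 and A14 (log2 fold changes -0.53, -0.55 and -0.37), the last being the chromosome that holds the gene, and had 7 positive interactions. The iron regulatory proteins differed in direction. Aco1 was lower with A8 (-0.30, FDR 4.69e-05) and A14 (-0.25, FDR 3.44e-04) and had a positive A14:A8 interaction (0.69, FDR 3.19e-09). Ireb2 was higher with A4 (0.40), A8 (0.31), A14 (0.21) and A17 (0.29) and had 5 negative interactions.

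In the heme list (16 of 16 genes measured), 7 main effects were higher and 11 lower of 128 (14.1% called, against 11.1% of all genes), and 10 interactions were positive and 3 negative of 240 (5.42% called, against 5.98%). Hmox1, which breaks down heme and frees its iron, was lower with A4, A6, A8, A10 and A14, with log2 fold changes between -0.70 and -0.62. The gene lies on chromosome 8. These effects share a B6 reference in which Hmox1 varied widely, at 25.9 ± 22.3 CPM (SD). Alad, an enzyme of heme synthesis on chromosome 4, was raised by A4 (0.65, FDR 1.36e-14), and Blvrb, a biliverdin reductase, was raised by A4, A6, A8 and A14 (log2 fold changes 0.28 to 0.51). On the 11 genes of iron-sulfur cluster assembly, edgeR called 0 of 88 main effects (16 had an unadjusted p below 0.05, and DESeq2 called 1). It also called 0 of their interactions (10 with an unadjusted p below 0.05, and 1 called by DESeq2).

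Markers of liver cell types moved with some of these results. With A8, 5 of the 6 hepatocyte markers were lower (Cps1 -0.82, Pck1 -0.54, Alb -0.48, Serpina1a -0.23 and Apoa1 -0.21 as log2 fold changes; 16.8% of all genes were called lower), and 3 of 6 were lower with A14 (12.6% of all genes). Ttr was not called with A8 (-0.05, FDR 0.673). The summed level of the 6 markers was mostly Alb, which alone had a mean of 82617 CPM in B6. It had a lowest, median and highest value of 47144, 69972 and 99152 CPM in (B6 x B6.A8)F1 and of 52670, 80197 and 115268 CPM in (B6.A14 x B6)F1, against 90839, 107054 and 145360 CPM in B6. In (B6.A14 x B6.A8)F1 it was 86591 to 112820 CPM, with a median of 105720. The fall of Tfr2, Trf and Cp with A8 thus went along with a fall in other hepatocyte transcripts, and the part of this in the results was not tested. Of the 7 Kupffer cell and macrophage markers, which include cells that recycle iron through Slc40a1, none was called with A8 (29.7% of all genes). Clec4f and Vsig4 were higher with A14 and with A4 (22.6% and 13.5% of all genes were called in either direction). Clec4f was also higher with A6 (log2 fold change 0.28, FDR 1.62e-04) and A17 (0.21, FDR 0.0402). The summed level of these 7 markers was 284.5 to 439 CPM in B6 and 283 to 591 CPM in (B6 x B6.A8)F1. Of 8 erythroid markers, 6 were measured. In the strains with low Tfrc, Alas2, the first enzyme of heme synthesis in red cells, was higher with A4 (log2 fold change 0.35, FDR 0.0199). Slc4a1, the anion exchanger of red cells, was lower with A14 (-1.20, SE 0.396, FDR 0.0189), from a low level of 1.22 ± 0.56 CPM in B6 (SD). With A17 none was called, although the 4 globin genes had log2 fold changes between -0.76 and -0.61 and unadjusted p between 0.0103 and 0.0280. The summed level was 111 to 741 CPM in B6, 172 to 485.1 CPM in (B6 x B6.A4)F1, 170 to 348.97 CPM in (B6.A17 x B6)F1, 209.5 to 319.9 CPM in (B6.A14 x B6)F1 and 155.6 to 474.1 CPM in (B6 x B6.A8)F1. The part of these changes in the Tfrc results was not tested. Endothelial (6 of 6), stellate (5 of 5), cholangiocyte (3 of 4) and lymphoid (2 of 4) markers summed in (B6 x B6.A8)F1 to medians of 339, 310, 4.97 and 26.8 CPM, against 339, 298, 4.60 and 21.2 CPM in B6. Single markers moved within these sums. With A8, the endothelial genes Clec4g and Stab2 changed by 0.54 and -0.14, the stellate cell genes Lrat and Col1a1 by 0.38 and -0.80, and the cholangiocyte gene Sox9 by 0.53 on the log2 scale (FDR 3.64e-06, 0.0454, 4.99e-04, 0.00318 and 0.0490). With A14, Clec4g (0.66), Kdr (0.24) and Lrat (0.43) were higher and Lyve1 was lower (-0.56). Their part in the results was not tested.

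Across the 24 strain means, levels of some members ran in parallel. These correlations are descriptions over strains with 3 to 20 mice each and share the normalization of the libraries. The highest Pearson r between members were 0.755 for Trf and Cp, 0.754 for Tfr2 and Cp and 0.667 for Tfr2 and Trf, and Fth1 and Ftl1 had 0.606. Hamp and Hamp2 had 0.252, and Tfr2 and Tfrc 0.276. Without E733 these 6 values were 0.771, 0.756, 0.646, 0.609, 0.217 and 0.258. Of all genes outside the list, those with the strain means most like Tfr2 were Ganab (r = 0.962), Itih1 (0.961) and Pzp (0.960). They were Lcat (0.918), 1300017J02Rik (0.896) and Serpinc1 (0.892) for Cp, and Cyp2a12 (0.893), Proc (0.890) and Cyp4f14 (0.886) for Trf. For Tfrc they were Tnks1bp1 (0.725), Mia2 (0.725) and Tesk2 (0.700), for Hpx Hc (0.732), Cfi (0.720) and Srbd1 (0.701), and for Slc40a1 they included Ctnnbip1 (0.836) and Akr1d1 (0.777). For Ftl1 they were Mpc2 (0.865), Psmb6 (0.827) and Psmd12 (0.773), and for Fth1 Htatip2 (0.760), Blvrb (0.734) and Mea1 (0.715). The hepcidins resembled different genes, which included Slc30a1 (0.695) and Reck (0.689) for Hamp, and were for Hamp2 Afm (0.798), Klhl13 (0.794) and Cyp2b9 (0.786). Without E733, r for these genes moved by at most 0.0296, and 24 of the 30 genes ranked in the top 3 of a member stayed there.

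Within the 20 B6 mice, 10 pairs of genes were examined for a correlation of log2 CPM with two-sided permutation tests, and none passed after adjustment over the 10 pairs. Hamp and Hamp2 had a Pearson r of 0.536 (permutation p = 0.0134, adjusted 0.0669) and a Spearman rho of 0.513 (permutation p = 0.0219, adjusted 0.219), with r = 0.374 when the 2 mice farthest from the median of Hamp were left out. Of the 50-base windows of Hamp, 16.6% occur also in Hamp2, and the part of shared reads in this correlation was not tested. Hamp and the BMP target Id1 had r = 0.461 (permutation p = 0.0394, adjusted 0.131) and rho = 0.350 (permutation p = 0.132, adjusted 0.299), with r = 0.156 without the 2 farthest mice. Slc40a1 and the macrophage gene Cd5l had r = 0.541 (permutation p = 0.0132, adjusted 0.0669) and rho = 0.298 (permutation p = 0.201, adjusted 0.336), with r = 0.223 without 2 mice. Hamp and Tfrc had r = -0.03 (permutation p = 0.900) and rho = -0.04 (permutation p = 0.866). Sequencing batches could not be examined within B6, since the sources used here do not give them.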

How the data were processed

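Total liver RNA was made into stranded libraries and sequenced as single-end reads of 50 bases. Reads were mapped by the authors to mm10 with TopHat2, guided by GENCODE vM7, and those left unmapped to a genome adapted to A/J. Duplicates were removed, reads were counted per gene with HTSeq, and genes with low counts were dropped. The deposited values are raw counts per gene. The strand setting of the counting is not given in the sources used here.

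Counts of 13289 genes in all mice were fitted with the quasi-likelihood F-test of edgeR 4.0.16 (R 4.3.3, TMM normalization, GENCODE vM21 positions, 47 genes without one), with 8 main effects, 15 interactions, B6 as the reference and 5 surrogate variables from svaseq (sva 3.50.0). For every effect, p-values over all genes were corrected by Benjamini-Hochberg, with genes on and off the substituted chromosome taken apart, and effects were called at an FDR of 0.05. Over all genes, 11803 main effects and 11927 interactions were called, both more than the study reported from its own edgeR fit. The cause of this difference was not tested. Levels are TMM-scaled CPM, with a prior count of 2 on the log2 scale; standard errors are the size of the log2 fold change divided by the square root of F, and 95% intervals are 1.96 standard errors. Tested on simulated data for all 13289 genes, the fit recovered 100 of 100 genes changed by A8 (log2 fold change 1) and 100 of 100 with an A14:A8 interaction (1.5). These simulated effects were larger than most called effects of the members. The simulated counts held no shared variation between libraries other than depth, so that they could not test the surrogate variables. Named were all 10 genes with their called effects, from each list the 3 genes with most called effects, and 9 genes set by name, and the 3 genes most like each member, except a few not reported here. The members and lists were chosen with earlier results of these data known. Alternatives were no or 10 surrogate variables, svaseq on deposited counts, RLE size factors, DESeq2 1.42.0, a filter of 15 counts in 75% of mice, edgeR's newer dispersion method, no split by chromosome, no E733, and leaving out replicates. Outlier mice that the authors removed are not analysed here.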

Additional observations from a re-analysis of the deposited data

Results flagged for a closer look

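In strains of 4 to 10 mice, 13 of 220 groups (a gene in a strain) held a mouse that stood apart from the others by Dixon's criterion, in 11 mice. Chance flags about 1 in 20 such groups. For Hamp these were E707 of (B6.A14 x B6.A8)F1 (68.1 CPM, the others 158.3 to 209.2) and E16 of (B6.A17 x B6.A8)F1 (73.1 CPM, the others 141.6 to 183.4). For Hamp2 they were E736 of (B6.A3 x B6.A10)F1 (13.1 CPM, the others 31.6 to 40.3) and E277 of (B6.A14 x B6.A5)F1 (14.4 CPM, the others 33.1 to 39.2). For Tfr2 they were E165 of (B6.A6 x B6)F1 (161.5 CPM, the others 210.3 to 265.8), E210 of (B6.A6 x B6.A4)F1 (295.2 CPM, the others 231.8 to 247.7) and E310 of (B6.A17 x B6.A8)F1 (282.6 CPM, the others 230.5 to 240.1). For Tfrc it was E584 of (B6.A17 x B6)F1 (80.2 CPM, the others 31.4 to 44.7). For Fth1 they were E242 of (B6.A3 x B6.A5)F1 (275.9 CPM, the others 365.4 to 388.9), E395 of (B6.A3 x B6.A10)F1 (294.9 CPM, the others 362.4 to 371.4), E210 of (B6.A6 x B6.A4)F1 (290.5 CPM, the others 375.3 to 396.1) and E16 of (B6.A17 x B6.A8)F1 (372.2 CPM, the others 393.9 to 402.9). For Hpx it was E710 of (B6.A14 x B6.A8)F1 (3935 CPM, the others 3377 to 3440).

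The effect of a chromosome differed with the presence of the other chromosome in the 19 called interactions, tested by the interaction term on the log2 scale. For Tfr2 these were A14:A8 at 1.03, A6:A8 at 0.85, A17:A8 at 0.57, A3:A8 at 0.54, A14:A5 at 0.47 and A14:A10 at 0.44. For Tfrc they were A17:A4 at 1.65, A14:A4 at 1.49, A17:A8 at 1.11, A14:A10 at 1.05, A14:A5 at 1.05 and A14:A8 at 1.03. Cp had A14:A8 at 0.61, A14:A5 at 0.42 and A6:A8 at 0.37, Trf had A14:A8 at 0.48 and A6:A8 at 0.37, Hamp2 had A14:A4 at 1.67 and Hamp had A17:A4 at -1.64.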

How the results depend on the processing

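No paired analysis was possible because replicate numbers followed accession order and paired no mice across strains. Of the 37 called effects of single members, 37 kept their call and sign with DESeq2, with edgeR's newer dispersion method and with no split by chromosome, 35 with RLE size factors, 34 with the filter of 15 counts in 75% of mice, 33 with svaseq on deposited counts, 32 without E733, 31 without surrogate variables and 19 with 10 of them. No estimate of a called effect changed sign. With 10 surrogate variables, called interactions of members fell from 19 to 10, members with a joint interaction from 5 to 3, and called effects of the lists from 97 to 56 (main) and from 105 to 39 (interactions). Called differences of double CSSs from B6 were 5 with the settings reported, 3 without surrogate variables, 3 with 10, 2 with svaseq on deposited counts and 3 without E733. They ranged from 1 to 5 when a replicate of every double CSS was left out. The median interaction share was 0.616, 0.589 without surrogate variables and 0.673 with 10. The cause of these changes was not tested. Surrogate variables changed the size of Tfr2 effects as well: with 10, the log2 fold changes were -0.38 for A8, -0.31 for A14, 0.52 for A6:A8 and 0.66 for A14:A8, all still called. When replicate 1, 2 and so on of every single CSS, or of every double CSS, was left out, Hamp A17:A4 lost its call in 5 of 12 fits, Hamp2 A4 in 4 of 8, Tfr2 A6 in 3 of 8, Cp A14:A5 in 9 of 13 and Ftl1 in (B6.A3 x B6.A5)F1 in 4 of 5. Such fits also ended the calls of Hamp in (B6.A17 x B6.A4)F1 in 3 of 4, Trf in (B6.A14 x B6.A4)F1 in 3 of 5, Fth1 in (B6.A3 x B6.A5)F1 in 1 of 5, Hamp2 A14:A4 in 1 of 13, Tfr2 A3:A8 in 1 of 11, Tfrc A14:A5 in 2 of 13 (lowest log2 fold change 0.89), Tfrc A14:A10 in 3 of 13 (lowest 0.86), Cp A6:A8 in 1 of 14 (0.32) and Hpx A4 in 2 of 8 (lowest 0.24). Depth limited no member, since the lowest count was 68, and the spread between mice set the precision for the hepcidins.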
